A study of Mus musculus with 15 samples.

Results

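The 43 genes described here are interferon response genes of the mouse: interferon receptors, sensors of viral RNA, transcription factors of the interferon regulatory factor (IRF) and STAT families, and genes that interferons switch on. They were chosen by name, as the rows of the expression table whose gene symbol equals an entry of a given list, and all 43 were found among 22526 symbols. Expression was measured by bulk RNA sequencing of cerebral vessels isolated from wild type C57BL/6 mice aged 8 months, in 15 libraries that form 3 groups of 5. GFP-Veh mice had a stereotactic injection of AAV-GFP, an adeno-associated virus carrying green fluorescent protein, and were given saline. GFP-AL mice had the same virus and were given AngII (angiotensin II, a peptide that constricts vessels) plus L-NAME, which inhibits nitric oxide synthases. LH3-AL mice had AAV-LH3 in place of AAV-GFP and were given the same drug pair. The gene Plod3 encodes LH3, an enzyme that modifies collagen, and by its title the series is about intracerebral haemorrhage that hypertension brings on. Every animal had received a virus into the brain, no group combined AAV-LH3 with saline, and the 2 drugs were never given apart, so an effect of LH3 without drugs and the effects of the single drugs cannot be told apart here. The sources used here do not give the promoter of the viruses, the cells they reached or the number of mice behind a library. The p-values below therefore set differences between groups against the spread between these libraries, which may in part be technical.

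Interferons are secreted proteins that cells release on sensing viral or misplaced nucleic acid. Type I interferons act through the receptor pair Ifnar1 and Ifnar2 and, by way of STAT2 and IRF9, switch on genes that carry an interferon-stimulated response element. Interferon-gamma acts through Ifngr1 and Ifngr2 on genes with gamma-activated sites. In brain vessels, endothelial cells and the macrophages and microglia beside them are known to respond to both. The question put to the 43 genes was whether they follow the other inflammatory genes of these vessels when the drug pair is given and when LH3 is added.

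Promoter sequences were read for the members on which the results turn, because many interferon targets carry the response element next to their start. RefSeq promoter windows of GRCm38.p6 (250 bases before to 50 after a start) were available for 34 of the 43 members. The core of the response element, GAAA followed after 2 bases by another GAAA and searched on both strands, stood in 16 of these 34, and in 3.99% of all 27025 genes of the table (3.44% of its 32851 windows). The gamma-activated site TTCNNNGAA, which is its own reverse complement, stood in 13 of the 34 and in 9.55% of all genes (8.30% of windows). The stretches below belong to 4 members, 3 of which were lower and 1 higher in GFP-AL than in GFP-Veh. Each runs 5′ to 3′ on the strand of its gene, and capitals mark the letters that match GAAA, any 2 bases, GAAA, or the reverse complement.
Gbp7, chr3:142530263-142530312, plus strand, match beginning 53 bases before the start: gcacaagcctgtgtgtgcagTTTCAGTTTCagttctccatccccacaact
Gbp3, chr3:142559979-142560034, plus strand, match beginning 45 bases before the start: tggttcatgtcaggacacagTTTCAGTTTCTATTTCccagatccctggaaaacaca
Gbp2, chr3:142620584-142620633, plus strand, match beginning 59 bases before the start: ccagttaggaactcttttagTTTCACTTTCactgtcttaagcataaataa
Ifitm2, chr7:140955978-140956027, minus strand, match beginning 46 bases before the start: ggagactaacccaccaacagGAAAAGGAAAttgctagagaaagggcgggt
The 3 guanylate-binding protein genes carry the match as TTTC repeats and Ifitm2 carries it as GAAA repeats. Among the other members with the core, Ifitm3 and Ifih1 held it after their starts. Of the members that were higher in GFP-AL than in GFP-Veh and had a window, 2 of 8 held the core. The count was 4 of 8 among those that were lower and 10 of 18 among those called in neither direction. A match describes these letters and is not evidence that a factor binds there.

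GFP-Veh replicates 1 to 4 were sequenced less deeply than the rest: the spacing of low values put them at 13.6 to 16.01 M fragments (M for mega), against 18.1 to 31.6 M elsewhere. Plod3 was measured at 16.8 ± 0.621 FPKM (SD, n = 5) in GFP-Veh, at 13.9 ± 1.09 with GFP-AL and at 21.6 ± 1.46 with LH3-AL, where FPKM is the fragment count per kilobase of a transcript, corrected for the depth of the library. All 11 endothelial markers were detected, and their summed level was 2032 to 3965 FPKM. Markers of choroid plexus and ependyma summed to 1968 to 9196 FPKM although, per the labels' protocols, that tissue was cleared away. On the first principal component of all genes (43.6% of the variance) GFP-AL replicates 2 and 3 lay at 49.4 and 58.0 against 19.8 to 27.9 for the rest of their group. GFP-Veh replicate 2 lay at -4.13 against -27.1 to -19.3. Counts are also given without these 3 libraries.

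Giving AngII plus L-NAME to mice that carried AAV-GFP changed the interferon genes in both directions. The interferon-gamma receptor chains, the factors Irf8 and Irf5, the membrane proteins Ifitm1, Ifitm2 and Ifitm3 and the exonuclease Isg20 were higher in GFP-AL than in GFP-Veh. Guanylate-binding proteins, Ifi27, Ifi44, the sensor Ifih1 and Irf9 were lower, and the classical type I targets Isg15, Ifit1, Ifit3, Oas1a and Rsad2 passed the test in neither direction. Of 42 members tested, 8 were called higher, against 10.8% of all 13082 genes tested, and 10 were called lower, against 17.7% of all genes, which makes 18 called against 28.6%. A gene is called when its Benjamini-Hochberg adjusted p over all genes, from limma on log2(FPKM + 1), lies below 0.05. Mx1 did not reach the mean of 1 FPKM that the test required and was not tested. The median difference of the 42 members was -0.25 on the log2 scale, beside -0.09 over all genes, and 12 of the 42 differences were positive. All 5 libraries of GFP-AL lay above all 5 of GFP-Veh for 5 members, beside 6.59% of all genes, and below them for 7, beside 10.1%, together 12 members beside 16.7%. With the estimated depth as a covariate 7 members were called higher, beside 7.78% of all genes, and 3 lower, beside 10.3%, the 3 being Gbp3, Gbp7 and Ifi27. Without the 3 libraries that stood apart, 8 were called higher, beside 11.6% of all genes, and 4 lower (those 3 and Irf9), beside 14.6%. The median of the members was then -0.064, beside -0.061 over all genes.

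Under the drug pair, AAV-LH3 in place of AAV-GFP gave the opposite mixture. Irf8, Irf5, Ifitm1, Ifitm2, Ifitm3, Ifngr1 and Ifngr2 were lower in LH3-AL than in GFP-AL. Gbp7, Gbp3, Gbp2, Ifi44, Ifi27, Ifit2, Oas2, Xaf1, Parp14 and Ifih1 were higher. This makes 7 members called lower, beside 11.4% of all genes, and 10 called higher, beside 17% of all genes, or 17 called beside 28.5%. The median difference was 0.25, beside 0.08 over all genes, and 32 of 42 differences were positive. The groups did not overlap for 5 members that were lower (8.45% of all genes) and 4 that were higher (11%), together 9 members beside 19.4%. Both comparisons use the same 5 GFP-AL libraries, so a high or low value in GFP-AL moves both differences, in opposite directions. Without the 3 libraries that stood apart, 4 members were called higher, beside 11.4% of all genes, and 6 lower, beside 9.79%.

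Between LH3-AL and GFP-Veh, which differ in both virus and drugs, limma called 0 of the 42 members in either direction, beside 0.52% of all genes. At an unadjusted p below 0.05 there were 4 members, beside 9.02% of all genes, and limma voom on estimated reads also called 0. The median difference was 0.03, beside -0.01 over all genes. The largest difference was that of Isg20, 1.28 (SE 0.33, adjusted p = 0.126), and it was the only member of the 42 whose libraries did not overlap between these groups. Over all genes 4.67% did not overlap, 2.06% higher and 2.61% lower in LH3-AL. Without GFP-AL replicates 2 and 3 and GFP-Veh replicate 2, Isg20 was called higher in LH3-AL, by 1.38 on the log2 scale (limma adjusted p = 0.0355), and it was the 1 member called there, beside 0.527% of all genes called higher and 0.68% lower. A p above the threshold does not show that levels were the same.

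**Figure D1:**
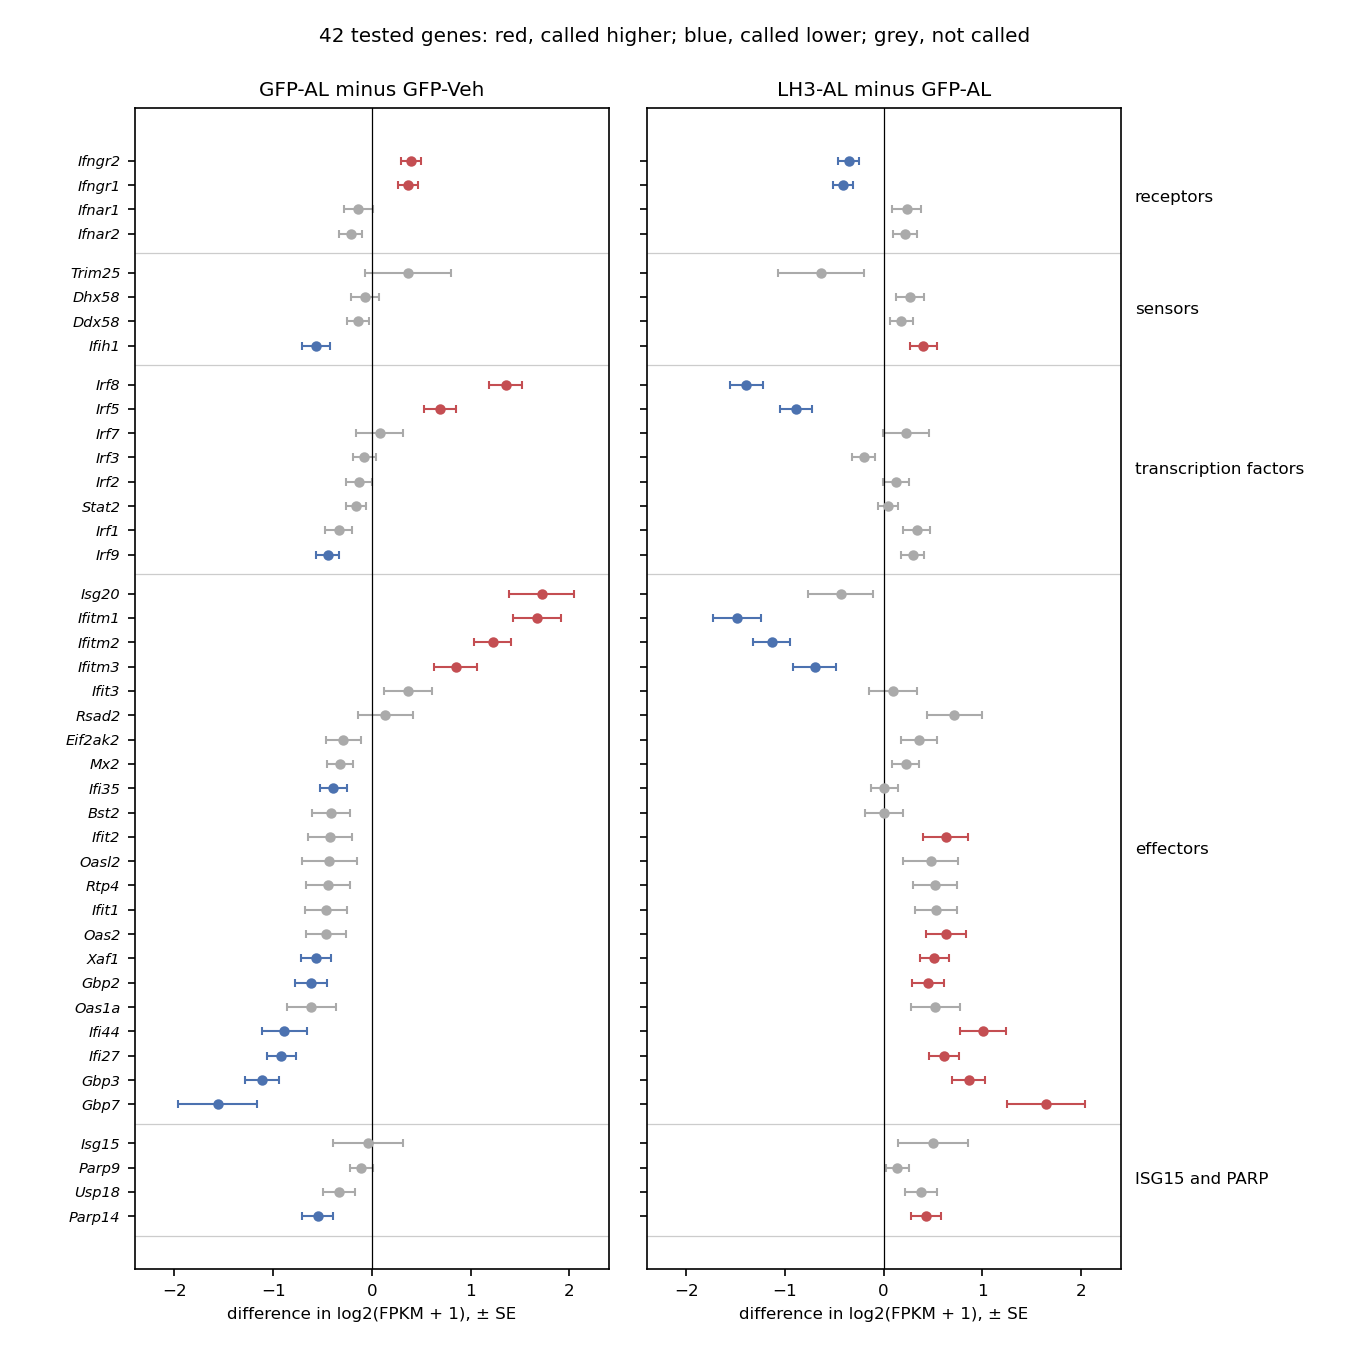
Differences in log2(FPKM + 1) with their standard errors for the 42 tested members, grouped by role, for GFP-AL minus GFP-Veh (left) and LH3-AL minus GFP-AL (right). Red marks members called higher, blue members called lower and grey members not called by limma at an adjusted p below 0.05. In the left panel 8 members lie to the right in red and 10 to the left in blue, and in the right panel 10 are red and 7 blue.

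Among the receptors, both chains of the interferon-gamma receptor were higher in GFP-AL, while the type I receptor chains were not called. Ifngr1, the chain that binds interferon-gamma, was measured at 22.5, 27.2, 21.4, 21.4 and 20.4 FPKM in GFP-Veh replicates 1 to 5, 28.2, 31.1, 33.7, 28.1 and 25.7 in GFP-AL and 22.2, 19.5, 21.5, 20.7 and 25.0 in LH3-AL. GFP-AL replicate 5 lay below GFP-Veh replicate 2, and all GFP-AL libraries lay above all LH3-AL libraries. The limma difference was 0.37 (SE 0.10, adjusted p = 0.0122) for GFP-AL against GFP-Veh and -0.41 (SE 0.10, adjusted p = 0.00739) for LH3-AL against GFP-AL. Ifngr2, the signalling partner of Ifngr1, stood at 8.18, 9.44, 9.18, 9.79 and 9.56 FPKM across GFP-Veh, 13.2, 13.7, 9.80, 12.7 and 13.4 across GFP-AL and 10.6, 9.32, 8.65, 8.33 and 11.1 across LH3-AL. The lowest GFP-AL library, replicate 3, was just above the highest of GFP-Veh and below LH3-AL replicates 1 and 5. Its differences by limma were 0.40 (SE 0.10, adjusted p = 0.00910) and -0.36 (SE 0.10, adjusted p = 0.0188). The first of these calls was lost with depth as a covariate (limma adjusted p = 0.0648). The second was lost without LH3-AL replicate 4 (limma adjusted p = 0.0543). Ifnar1 was at 19.8, 22.2, 28.1, 27.2 and 22.7 FPKM across GFP-Veh, 26.5, 17.1, 16.8, 25.8 and 23.7 across GFP-AL and 30.4, 25.6, 21.9, 22.4 and 28.6 across LH3-AL. Ifnar2 was at 21.0, 28.6, 26.5, 25.7 and 22.9 FPKM across GFP-Veh, 21.8, 16.9, 18.9, 26.4 and 23.5 across GFP-AL and 26.0, 26.1, 22.9, 22.8 and 26.8 across LH3-AL. In both genes the groups overlapped, and GFP-AL replicates 2 and 3 were the lowest of the 15 libraries. Neither type I chain was called, and the limma difference of GFP-AL from GFP-Veh was -0.14 (SE 0.15, adjusted p = 0.513) for Ifnar1 and -0.21 (SE 0.12, adjusted p = 0.180) for Ifnar2.

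Of the 8 transcription factors, 2 were higher in GFP-AL, beside 10.8% of all genes, 1 was lower, beside 17.7%, and 5 were not called. Irf8, a factor of macrophage and microglial lineages, stood at 1.38, 1.64, 1.25, 1.36 and 1.29 FPKM across GFP-Veh, 3.995, 7.29, 7.69, 3.45 and 4.23 across GFP-AL and 1.07, 1.24, 1.34, 1.33 and 1.67 across LH3-AL. Every GFP-AL library was above every other library, with replicates 2 and 3 the highest, and the remaining groups covered the same narrow range. The limma difference was 1.36 (SE 0.17, adjusted p = 4.81e-05) for GFP-AL against GFP-Veh, a ratio of 2.56 in FPKM + 1, and -1.39 (SE 0.17, adjusted p = 7.53e-05) for LH3-AL against GFP-AL. Irf5, which acts downstream of Toll-like receptors in myeloid cells, was at 4.79, 5.96, 4.04, 5.08 and 4.59 FPKM across GFP-Veh, 9.30, 9.70, 9.32, 5.41 and 9.36 across GFP-AL and 2.70, 4.05, 4.93, 4.18 and 5.12 across LH3-AL. Of the GFP-AL libraries, 4 lay close together above all the rest, and replicate 4 fell within the GFP-Veh range. Limma gave 0.69 (SE 0.16, adjusted p = 0.00515) and -0.89 (SE 0.16, adjusted p = 0.00126). Irf5 shares exon sequence with Tnpo3 on the opposite strand, and the sources used here do not say whether counting used strand.

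Irf9, the DNA-binding part of the complex that carries the type I signal, went the other way. It was measured at 14.3, 14.1, 13.6, 12.5 and 13.9 FPKM across GFP-Veh, 10.98, 10.3, 7.04, 10.9 and 10.1 across GFP-AL and 13.5, 10.6, 10.7, 11.8 and 14.7 across LH3-AL. All GFP-AL libraries lay below all GFP-Veh libraries, with replicate 3 the lowest, while LH3-AL overlapped both groups. The limma difference was -0.45 (SE 0.12, adjusted p = 0.0106) for GFP-AL against GFP-Veh, lost with depth as a covariate (adjusted p = 0.0506), and 0.29 (SE 0.12, adjusted p = 0.0705) for LH3-AL against GFP-AL. Stat2, its partner, was at 42.01, 34.0, 40.9, 37.7 and 38.8 FPKM across GFP-Veh, 39.3, 32.0, 29.4, 33.1 and 39.0 across GFP-AL and 37.3, 35.7, 31.5, 33.1 and 40.8 across LH3-AL, with overlapping groups, and was not called.

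The other 4 factors were not called either. Irf7, the factor that amplifies interferon production, was at 8.24, 13.1, 9.53, 7.55 and 6.25 FPKM across GFP-Veh, 10.3, 12.8, 7.01, 10.0 and 7.08 across GFP-AL and 10.1, 8.21, 8.41, 10.8 and 20.7 across LH3-AL, where LH3-AL replicate 5 stood above all other libraries. Irf1, an early target of interferon-gamma, was at 6.96, 6.52, 7.31, 6.39 and 9.09 FPKM across GFP-Veh, 4.22, 4.45, 6.06, 5.93 and 7.25 across GFP-AL and 8.38, 6.29, 8.36, 5.99 and 7.22 across LH3-AL. GFP-AL replicates 1 and 2 were the lowest of the 15 libraries, and limma gave -0.34 (SE 0.14, adjusted p = 0.0772) and 0.34 (SE 0.14, adjusted p = 0.0783). Without GFP-AL replicate 5 limma called Irf1 in both comparisons, at -0.42 (adjusted p = 0.0288) and 0.42 (adjusted p = 0.0306). Irf2, a repressor of interferon targets, was at 33.6, 22.7, 30.8, 29.1 and 25.6 FPKM across GFP-Veh, 24.7, 23.7, 20.2, 32.0 and 29.1 across GFP-AL and 27.8, 24.3, 29.1, 30.4 and 29.0 across LH3-AL. Irf3, which switches on interferon genes, was at 41.4, 49.5, 35.8, 42.5 and 44.2 FPKM across GFP-Veh, 33.4, 51.0, 39.7, 37.6 and 41.1 across GFP-AL and 29.6, 38.6, 36.3, 36.1 and 34.0 across LH3-AL. The groups of both overlapped, with differences of -0.13 and 0.13 for Irf2 and -0.08 and -0.20 for Irf3 on the log2 scale.

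**Figure D2:**
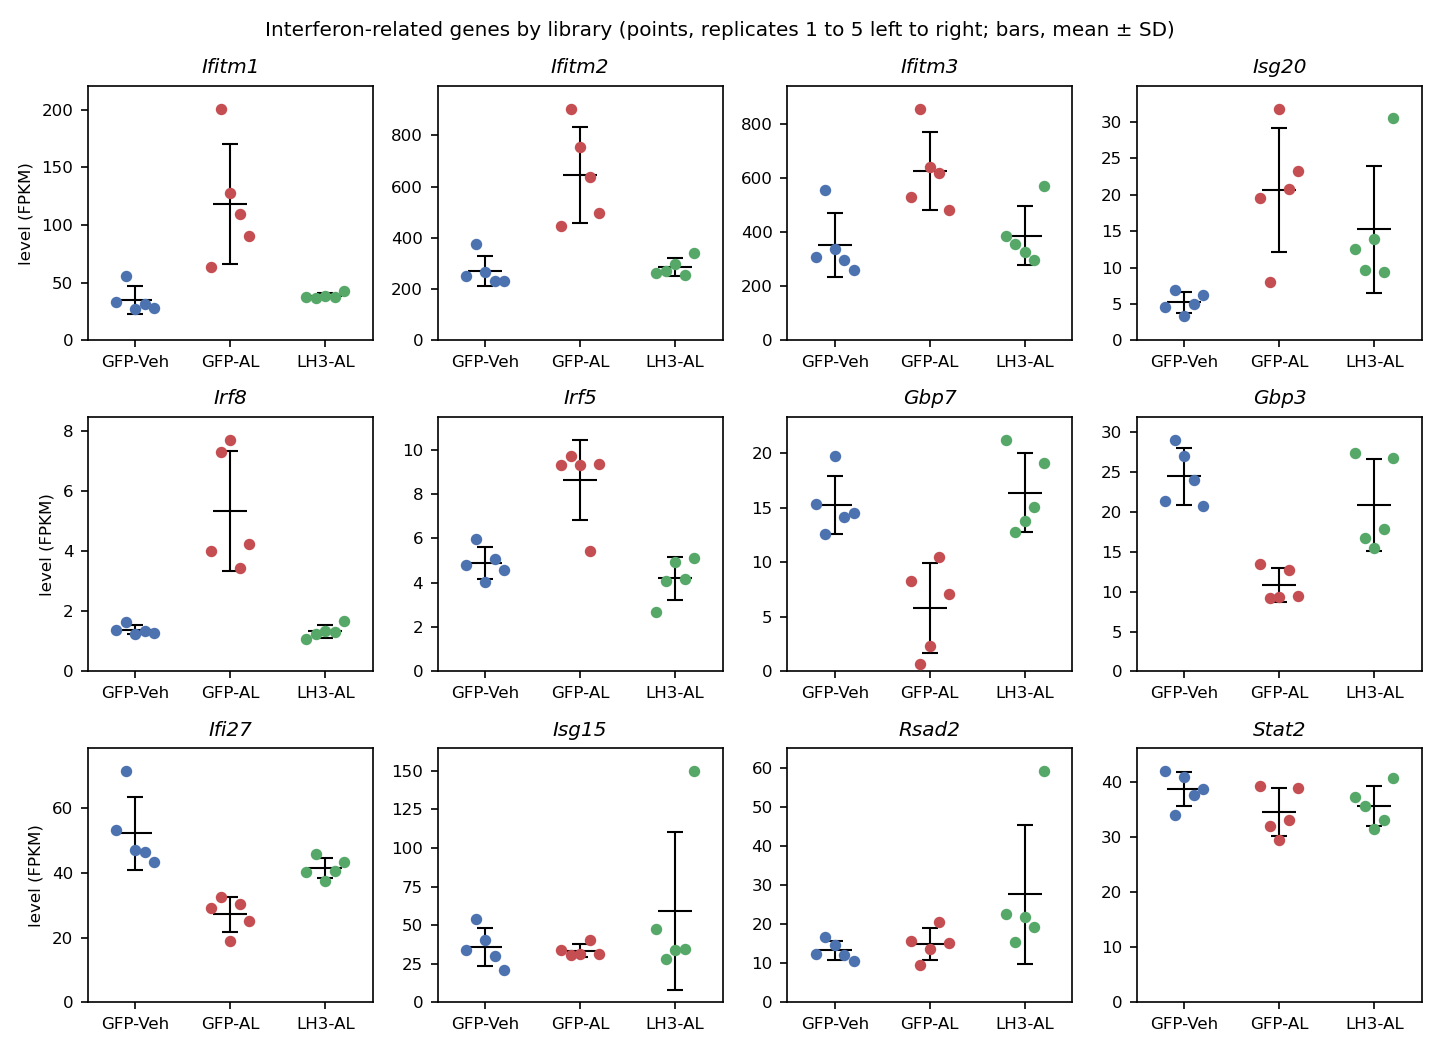
Levels in FPKM of 12 members in each library (points, replicates 1 to 5 from left to right), with the mean and SD of each group of 5. Ifitm1, Ifitm2, Irf8 and Isg20 are higher in every GFP-AL library than in any GFP-Veh library, Gbp7, Gbp3 and Ifi27 are lower in every one, and Isg15 and Rsad2 have a single high library, LH3-AL replicate 5.

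The effectors held the largest changes in both directions. Of 22 tested, 4 were higher in GFP-AL than in GFP-Veh, beside 10.8% of all genes, and 7 were lower, beside 17.7%. The 4 were Isg20 and the neighbouring Ifitm genes of chromosome 7, which encode membrane proteins that hinder the entry of enveloped viruses. Ifitm1 was measured at 33.2, 55.6, 26.9, 31.5 and 28.0 FPKM across GFP-Veh, 63.5, 200.4, 128, 109 and 90.4 across GFP-AL and 37.3, 37.0, 38.9, 37.9 and 42.6 across LH3-AL. The GFP-AL libraries did not overlap either other group, GFP-AL replicate 2 was the highest, and LH3-AL kept to a narrow range. By limma the difference was 1.67 (SE 0.24, adjusted p = 1.98e-04), a ratio of 3.19 in FPKM + 1, for GFP-AL against GFP-Veh and -1.48 (SE 0.24, adjusted p = 6.95e-04) for LH3-AL against GFP-AL. Ifitm2 stood at 253, 374, 269, 230.1 and 232 FPKM across GFP-Veh, 445, 902, 754, 636 and 495 across GFP-AL and 264, 269, 299.6, 255 and 339.8 across LH3-AL. Its groups were likewise separate, and limma gave 1.22 (SE 0.19, adjusted p = 2.73e-04) and -1.14 (SE 0.19, adjusted p = 6.73e-04). Ifitm3, with a match to the response element after its start, was at 309, 556, 338, 297 and 261 FPKM across GFP-Veh, 531, 854, 639, 618 and 480.1 across GFP-AL and 386, 357, 325, 297 and 570.1 across LH3-AL. GFP-Veh replicate 2 and LH3-AL replicate 5 reached into the GFP-AL range. The differences by limma were 0.85 (SE 0.22, adjusted p = 0.00925) and -0.70 (SE 0.22, adjusted p = 0.0270). The second was lost when GFP-AL replicate 2 or 3 or LH3-AL replicate 2, 3 or 4 was left out (adjusted p = 0.0537 to 0.0704). Ifitm2 and Ifitm3 were the most abundant members per length in all 3 groups, and since the 3 Ifitm genes are close copies, the share of reads given to each is uncertain.

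Isg20, which degrades single-stranded RNA, rose with the drug pair but was not called between the viruses. It was measured at 4.62, 6.96, 3.34, 4.96 and 6.19 FPKM across GFP-Veh, 19.5, 8.08, 31.7, 20.8 and 23.3 across GFP-AL and 12.6, 9.73, 13.9, 9.40 and 30.6 across LH3-AL. All 10 libraries from mice given the drugs lay above all 5 given saline, and the groups given the drugs overlapped, with GFP-AL replicate 2 the lowest and GFP-AL replicate 3 and LH3-AL replicate 5 the highest. The limma difference was 1.72 (SE 0.33, adjusted p = 0.00147) for GFP-AL against GFP-Veh and -0.44 (SE 0.33, adjusted p = 0.327) for LH3-AL against GFP-AL. Red cell markers moved with it: their summed level was 1194 to 2995 FPKM in GFP-Veh, 3056 to 15591 in GFP-AL and 3869 to 8312 in LH3-AL. As with Isg20, all 10 libraries with the drugs lay above all 5 with saline, GFP-AL replicate 2 was the lowest and replicate 3 the highest of GFP-AL, and replicate 5 was the highest of LH3-AL. Their part in the result for Isg20 was not tested. Whether its difference between the viruses departs from those of the Ifitm genes was not tested either.

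The effectors that were lower in GFP-AL included 3 guanylate-binding proteins, GTPases that attack the compartments of intracellular microbes and whose genes lie together on chromosome 3. Gbp7 was measured at 15.3, 12.6, 19.7, 14.2 and 14.6 FPKM across GFP-Veh, 8.26, 0.677, 2.37, 10.52 and 7.08 across GFP-AL and 21.2, 12.8, 13.8, 15.1 and 19.1 across LH3-AL. Every GFP-AL library was below every other library, and GFP-AL replicates 2 and 3 were far below the rest of their own group. The limma difference was -1.56 (SE 0.40, adjusted p = 0.00896) for GFP-AL against GFP-Veh and 1.65 (SE 0.40, adjusted p = 0.00769) for LH3-AL against GFP-AL. Without the 3 libraries that stood apart these fell in size to -0.82 and 0.85, still called. Gbp3 stood at 21.4, 29.0, 27.0, 24.0 and 20.8 FPKM across GFP-Veh, 13.5, 9.20, 9.26, 12.7 and 9.46 across GFP-AL and 27.4, 16.7, 15.5, 17.8 and 26.7 across LH3-AL, so that GFP-AL again lay apart from both other groups. By limma it gave -1.11 (SE 0.17, adjusted p = 2.60e-04) and 0.86 (SE 0.17, adjusted p = 0.00202). Gbp2 was at 35.3, 47.2, 42.6, 37.8 and 32.6 FPKM across GFP-Veh, 24.9, 25.9, 20.5, 33.9 and 21.8 across GFP-AL and 43.5, 31.9, 28.0, 28.4 and 44.9 across LH3-AL. Here the groups overlapped, since GFP-AL replicate 4 reached above GFP-Veh replicate 5, and limma gave -0.61 (SE 0.16, adjusted p = 0.0110) and 0.45 (SE 0.16, adjusted p = 0.0479). All 3 genes carry the match to the response element shown above, and reads of this family could be split among its copies.

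Ifi27, a small mitochondrial protein gene induced by type I interferon, was at 53.1, 71.4, 46.9, 46.5 and 43.4 FPKM across GFP-Veh, 29.1, 32.5, 19.0, 30.2 and 25.2 across GFP-AL and 40.1, 45.8, 37.6, 40.6 and 43.3 across LH3-AL. All GFP-AL libraries lay below all libraries of both other groups, and limma gave -0.92 (SE 0.15, adjusted p = 4.14e-04) for GFP-AL against GFP-Veh and 0.61 (SE 0.15, adjusted p = 0.00765) for LH3-AL against GFP-AL. Ifi44, another type I target, was low throughout, at 3.996, 3.46, 5.12, 2.44 and 3.03 FPKM across GFP-Veh, 1.77, 1.30, 0.515, 2.52 and 1.56 across GFP-AL and 4.92, 3.24, 2.68, 3.20 and 6.38 across LH3-AL. GFP-AL replicate 4 overlapped GFP-Veh, and no GFP-AL library reached LH3-AL. Its differences by limma were -0.89 (SE 0.23, adjusted p = 0.00968) and 1.01 (SE 0.23, adjusted p = 0.00539). Xaf1, a gene that promotes cell death, was at 9.57, 10.0, 9.76, 8.82 and 7.85 FPKM across GFP-Veh, 8.03, 5.11, 4.34, 7.48 and 5.16 across GFP-AL and 10.1, 7.65, 7.41, 8.27 and 11.2 across LH3-AL. GFP-AL replicates 2, 3 and 5 lay below all other libraries, and limma gave -0.56 (SE 0.15, adjusted p = 0.0109) and 0.51 (SE 0.15, adjusted p = 0.0194). Ifi35 was at 22.0, 29.5, 18.9, 16.7 and 17.0 FPKM across GFP-Veh, 13.8, 16.2, 14.3, 16.6 and 15.7 across GFP-AL and 15.4, 13.0, 15.5, 14.7 and 19.0 across LH3-AL. All GFP-AL libraries lay below all of GFP-Veh, replicate 4 only just, and LH3-AL overlapped both. By limma Ifi35 was called lower in GFP-AL, -0.39 (SE 0.14, adjusted p = 0.0449), but was not called between the viruses, 0.01 (SE 0.14, adjusted p = 0.968). The call of Ifi35 was lost without any single GFP-AL library and without GFP-Veh replicate 1, 2 or 3 (adjusted p = 0.0502 to 0.0939).

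Oas2 and Ifit2 were called higher in LH3-AL than in GFP-AL and not called between GFP-AL and GFP-Veh. Oas2, an oligoadenylate synthetase that activates RNA decay in infected cells, was at 3.01, 5.00, 5.08, 4.44 and 1.97 FPKM across GFP-Veh, 2.07, 3.19, 1.49, 3.39 and 2.30 across GFP-AL and 5.60, 4.10, 4.44, 3.35 and 4.26 across LH3-AL. Ifit2, which binds foreign RNA at ribosomes, was at 8.02, 8.82, 9.89, 7.70 and 6.64, 8.16, 3.00, 3.87, 8.74 and 7.41 and 12.3, 8.38, 8.16, 7.93 and 11.7 FPKM in the same order of groups. In both genes the LH3-AL and GFP-AL libraries overlapped, and GFP-AL replicates 2 and 3 were lowest for Ifit2. For LH3-AL against GFP-AL limma gave 0.63 (SE 0.20, adjusted p = 0.0304) for Oas2 and 0.63 (SE 0.23, adjusted p = 0.0481) for Ifit2, while GFP-AL against GFP-Veh gave -0.47 (SE 0.20, adjusted p = 0.0953) and -0.43 (SE 0.23, adjusted p = 0.167).

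Of the 4 genes of the sensor group, Ifih1 was called. Ifih1 encodes MDA5, a sensor of long double-stranded RNA, and was at 5.43, 6.09, 7.17, 5.77 and 4.90 FPKM across GFP-Veh, 4.17, 3.05, 2.68, 4.83 and 3.62 across GFP-AL and 6.16, 4.51, 4.30, 4.53 and 6.29 across LH3-AL. GFP-AL did not overlap GFP-Veh, though its replicate 4 lay just below GFP-Veh replicate 5, and limma gave -0.57 (SE 0.14, adjusted p = 0.00717) and, for LH3-AL against GFP-AL, 0.40 (SE 0.14, adjusted p = 0.0411). Ddx58, which encodes the related sensor RIG-I, differed by -0.14 and 0.18 and Dhx58 by -0.07 and 0.27 on the log2 scale, all uncalled, and their levels ran over 4.90 to 7.86 and 2.02 to 4.69 FPKM over the 15 libraries. Trim25, the ubiquitin ligase that serves RIG-I, varied more within each group than between them, at 4.09 to 22.2 FPKM across GFP-Veh, 7.44 to 22.8 across GFP-AL and 4.46 to 19.7 across LH3-AL. Among the 4 genes of the ISG15 system and of ADP-ribosylation, Parp14 was called lower in GFP-AL, -0.55 (SE 0.15, adjusted p = 0.0146), and higher in LH3-AL than in GFP-AL, 0.43 (SE 0.15, adjusted p = 0.0461), by limma. Its levels were 8.69, 9.09, 10.7, 8.70 and 8.11 FPKM across GFP-Veh, 6.01, 5.54, 4.02, 7.84 and 6.37 across GFP-AL and 11.3, 6.78, 6.79, 7.51 and 9.54 across LH3-AL, with all of GFP-AL below all of GFP-Veh and LH3-AL overlapping both. Isg15, the ubiquitin-like protein after which the system is named, was at 33.7, 53.8, 40.5, 30.1 and 21.2 FPKM across GFP-Veh, 33.9, 30.9, 31.2, 40.5 and 31.2 across GFP-AL and 47.7, 28.3, 34.2, 34.8 and 149.7 across LH3-AL. LH3-AL replicate 5 stood far above the rest and the groups otherwise overlapped, and limma gave -0.04 (SE 0.35, adjusted p = 0.948) and 0.50 (SE 0.35, adjusted p = 0.294). Usp18, which removes ISG15 and dampens the type I receptor, differed by -0.33 and 0.38 and Parp9 by -0.11 and 0.14, uncalled, with levels of 4.58 to 11.3 and 6.02 to 9.45 FPKM over the 15 libraries.

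The remaining effectors were not called in any comparison by limma. Rsad2, which encodes viperin, stood at 12.3, 16.7, 14.7, 12.2 and 10.6 FPKM across GFP-Veh, 15.8, 9.56, 13.7, 20.6 and 15.1 across GFP-AL and 22.6, 15.6, 21.8, 19.2 and 59.2 across LH3-AL, and LH3-AL replicate 5 was far above all other libraries. In GFP-AL against GFP-Veh limma gave 0.14 (SE 0.28, adjusted p = 0.743) for Rsad2, -0.47 (SE 0.21, adjusted p = 0.114) for Ifit1, -0.61 (SE 0.25, adjusted p = 0.0731) for Oas1a and 0.37 (SE 0.24, adjusted p = 0.276) for Ifit3. Over the 15 libraries Ifit1 ran from 10.52 to 33.7 FPKM, Oas1a from 3.88 to 18.0 and Ifit3 from 20.3 to 65.7. Ifit1 and Ifit3 bind foreign RNA like Ifit2, and Ifit3 has a close copy, Ifit3b, with which its reads could be split. Oasl2, Eif2ak2 (the RNA-activated kinase PKR), Mx2, Rtp4 and Bst2 (tetherin) differed by -0.43, -0.29, -0.32, -0.45 and -0.41 on the log2 scale. These 5 differences were negative and none was called. Their levels over the 15 libraries were 3.26 to 16.8, 3.56 to 10.0, 1.19 to 2.69, 14.2 to 51.3 and 43.6 to 123 FPKM in the same order. For LH3-AL against GFP-AL these 5 gave 0.48, 0.36, 0.22, 0.52 and 0.004, all uncalled. There Rsad2, Ifit1, Oas1a and Ifit3 gave 0.72, 0.53, 0.53 and 0.09, also uncalled. For LH3-AL against GFP-Veh limma gave 0.85 (SE 0.28, adjusted p = 0.311) for Rsad2. Mx1, a GTPase gene that is defective in this strain, stood at 0.596 ± 0.180, 0.705 ± 0.301 and 0.812 ± 0.202 FPKM (SD, n = 5) in GFP-Veh, GFP-AL and LH3-AL.

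Several calls between LH3-AL and GFP-AL depended on single libraries, with the following adjusted p by limma. Ifit2 was not called without GFP-AL replicate 2 or 3 or any LH3-AL library (adjusted p = 0.0561 to 0.122). Parp14 was lost without GFP-AL replicate 1, 2, 3 or 5 or LH3-AL replicate 1, 4 or 5 (0.0531 to 0.124). Gbp2 was lost without GFP-AL replicate 1, 2, 3 or 5 or LH3-AL replicate 1, 2 or 5 (0.0639 to 0.122). Ifih1 was lost without GFP-AL replicate 2, 3 or 5 or LH3-AL replicate 1, 4 or 5 (0.0531 to 0.105). Oas2 lost its call without GFP-AL replicate 1, 3 or 5 or LH3-AL replicate 1, 2 or 3 (0.05002 to 0.0789), and Xaf1 without GFP-AL replicate 3 or LH3-AL replicate 1 (0.0501 and 0.0509). The calls of Ifitm1, Ifitm2, Irf8, Irf5, Ifngr1, Gbp7, Gbp3, Ifi27 and Ifi44 between the viruses held in all alternatives run.

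Within a group, some libraries ranked highest or lowest over many members at once. LH3-AL replicate 5 was the highest of its group for 30 of the 42 members, beside 17.2% of all genes. GFP-Veh replicate 2 was the highest of its group for 25, beside 36.0% of all genes, and GFP-Veh replicate 5 the lowest for 22, beside 20.3%. GFP-AL replicate 3 was the lowest of its group for 21 members, beside 35.3% of all genes, and GFP-AL replicate 4 the highest for 18, beside 14.7%. LH3-AL replicate 2 was the lowest of its group for 18 members as well, beside 20.1% of all genes. Members share a library in these counts, so they are not independent. Without LH3-AL replicate 5, LH3-AL against GFP-AL gave 6 members higher, beside 15.6% of all genes, and 7 lower, beside 10.4%.

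**Figure D3:**
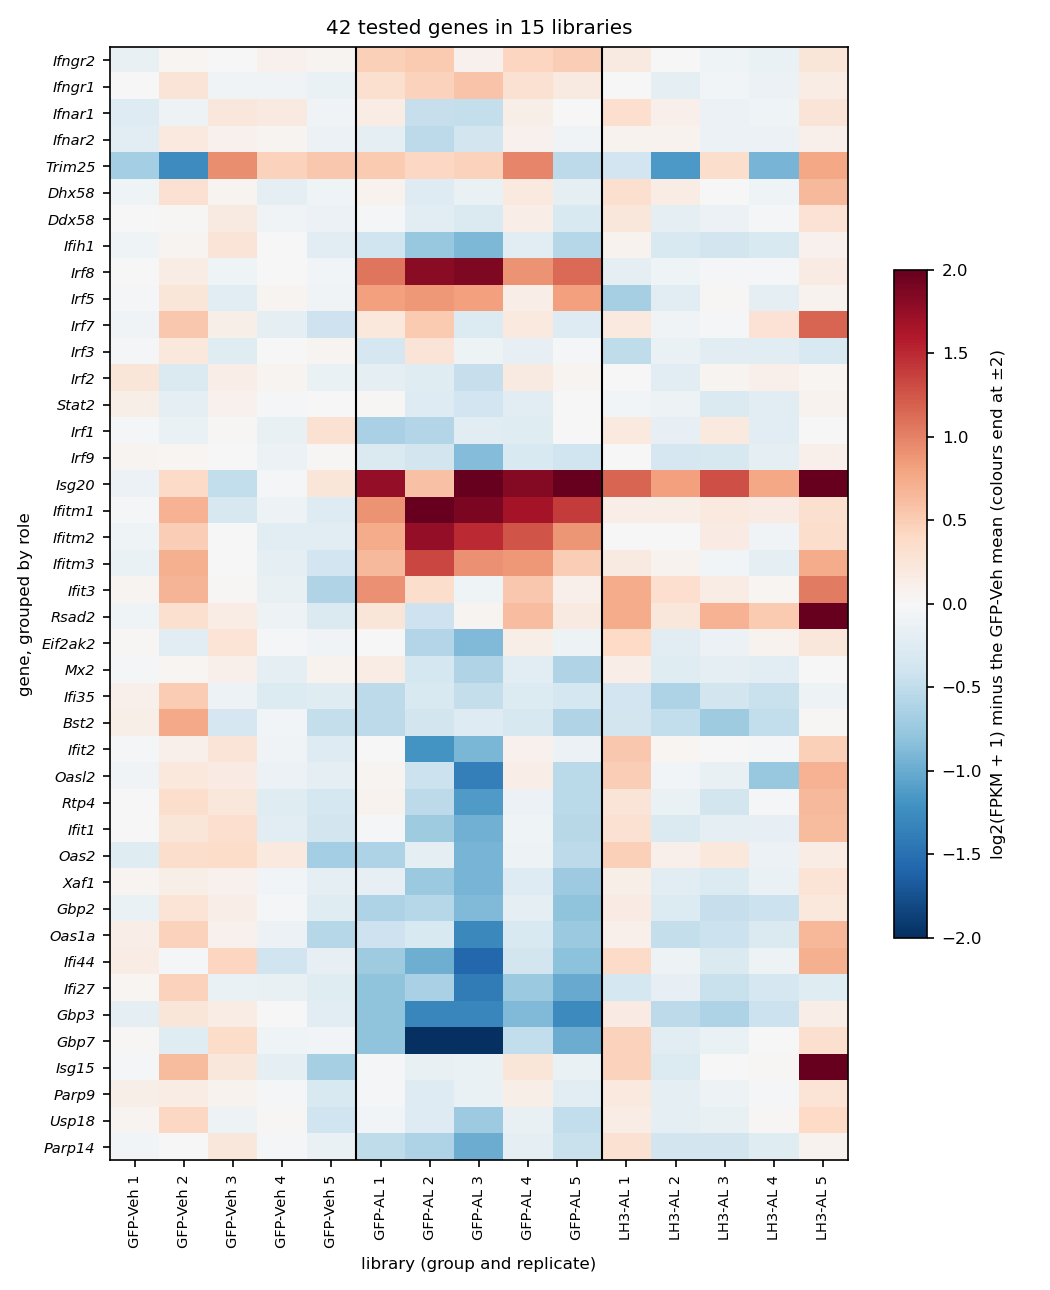
The 42 tested members in the 15 libraries, as log2(FPKM + 1) minus the mean of the 5 GFP-Veh libraries, with colours ending at 2 in either direction. GFP-AL libraries are red for Irf8, Irf5, Isg20 and the Ifitm genes and blue for the guanylate-binding proteins and Ifi27, and LH3-AL replicate 5 is red across many effectors, with Isg15 and Rsad2 at the end of the scale.

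Genes of the pathway outside the 43 were read from lists chosen by role. Of the ligands, Ifng and Ifna7 were in the table and 0 were tested, and their summed level was at most 0.210 FPKM in any library. Ifnb1 was among the 21 ligand symbols looked for and was not in the table. Receptor-proximal signalling genes gave 6 higher and 2 lower of 15 tested in GFP-AL against GFP-Veh (median 0.18), and 2 higher and 7 lower in LH3-AL against GFP-AL (median -0.22). Over all genes 10.8% were called higher and 17.7% lower in the first comparison, and 17% and 11.4% in the second. Without the 3 libraries that stood apart the counts in GFP-AL against GFP-Veh were 4 and 1, beside 11.6% and 14.6%. By limma, Socs3, a feedback inhibitor of cytokine signalling, differed by 3.80 (SE 0.33, adjusted p = 6.04e-06) in GFP-AL and by -2.94 (SE 0.33, adjusted p = 5.32e-05) between the viruses. Stat3, which carries signals of the interleukin-6 family, gave 1.032 (SE 0.12, adjusted p = 3.79e-05) and -0.996 (SE 0.12, adjusted p = 8.65e-05), and Ptpn1, a phosphatase that acts on JAK kinases, gave 0.73 (SE 0.09, adjusted p = 6.45e-05) and -0.66 (SE 0.09, adjusted p = 2.31e-04). Tyk2, the kinase bound to Ifnar1, was lower in GFP-AL, -0.51 (SE 0.09, adjusted p = 7.45e-04), and higher in LH3-AL than in GFP-AL, 0.50 (SE 0.09, adjusted p = 0.00120).

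Genes that sense nucleic acid and relay the signal gave 5 higher and 0 lower of 17 tested in GFP-AL against GFP-Veh (median 0.27). They gave 0 higher and 7 lower in LH3-AL against GFP-AL (median -0.23). Beside the counts of this paragraph, the shares of all genes were 10.8% higher and 17.7% lower, then 17% and 11.4%. Tmem173, which encodes STING, led them with 1.42 (SE 0.22, adjusted p = 2.66e-04) and -1.44 (SE 0.22, adjusted p = 3.65e-04) by limma. Tlr7, a sensor of single-stranded RNA, gave 0.76 (SE 0.15, adjusted p = 0.00156) and -0.77 (SE 0.15, adjusted p = 0.00164), and Myd88, the adaptor of Toll-like receptors, gave 0.80 (SE 0.15, adjusted p = 0.00115) and -0.71 (SE 0.15, adjusted p = 0.00325). Interferon-gamma-induced GTPases and regulators gave the reverse, with 0 higher and 7 lower of 11 tested in GFP-AL (median -0.70) and 6 higher and 0 lower between the viruses (median 0.55). Without the 3 libraries that stood apart the counts of these GTPases and regulators were 0 and 5, then 3 and 0. The shares of all genes were then 11.6% and 14.6%, then 11.4% and 9.79%. Tgtp2, Irgm2 and Tgtp1, which encode GTPases of cellular immunity to parasites, gave -1.89 (SE 0.24, adjusted p = 5.63e-05), -1.09 (SE 0.16, adjusted p = 2.38e-04) and -1.27 (SE 0.22, adjusted p = 7.44e-04) in GFP-AL against GFP-Veh by limma. For LH3-AL against GFP-AL the same genes gave 1.36, 1.04 and 0.99, all called.

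Further interferon-stimulated genes were a mixture like the 43 members, with 9 higher and 17 lower of 46 tested in GFP-AL (median -0.25) and 15 higher and 8 lower in LH3-AL against GFP-AL (median 0.23). The shares of all genes were 10.8% higher and 17.7% lower, then 17% and 11.4%. Without the 3 libraries that stood apart the counts were 9 and 8, then 8 and 4. The shares of all genes were then 11.6% and 14.6%, then 11.4% and 9.79%. Cmpk2, a mitochondrial nucleotide kinase gene, and Ifi203, a DNA-binding family member, were the most clearly lower in GFP-AL, with -1.51 (SE 0.20, adjusted p = 1.07e-04) and -1.41 (SE 0.20, adjusted p = 1.29e-04) by limma. Ifi30, a lysosomal reductase of antigen-presenting cells, and Ifi204, which encodes a DNA sensor, were higher, with 1.08 (SE 0.18, adjusted p = 6.08e-04) and 0.99 (SE 0.18, adjusted p = 0.001003). In LH3-AL against GFP-AL limma gave 1.26, 1.24, -0.96 and -0.67 for these 4 genes, all called.

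The other inflammatory genes, a list of cytokines, adhesion molecules, acute-phase and NF-kappaB genes written with earlier results of these data known, moved one way. Of 34 tested, 32 were higher and 0 lower in GFP-AL than in GFP-Veh, with a median of 2.10, and 0 were higher and 31 lower in LH3-AL than in GFP-AL, with a median of -1.90. Side by side, the 42 interferon members gave 8 higher and 10 lower with a median of -0.25, then 10 higher and 7 lower with a median of 0.25. Over all genes 10.8% were higher and 17.7% lower (median -0.09), then 17% and 11.4% (median 0.08). In GFP-AL against GFP-Veh 3 members were lower with depth as a covariate, beside 10.3% of all genes. Without the 3 libraries that stood apart the member median there was -0.064, beside -0.061 over all genes. The largest member difference, 1.72 for Isg20 in GFP-AL against GFP-Veh, was below the median of the inflammatory list. The difference between the lists was not tested, since both were chosen with results in view, and its direction for the inflammatory list is no independent evidence. The list holds Socs3 and Stat3, which are also signalling genes above. Lrg1, an acute-phase glycoprotein gene, was called higher in LH3-AL than in GFP-Veh, 2.49 (SE 0.45, adjusted p = 0.0192), by limma, where 0 of the interferon members were called.

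**Figure D4:**
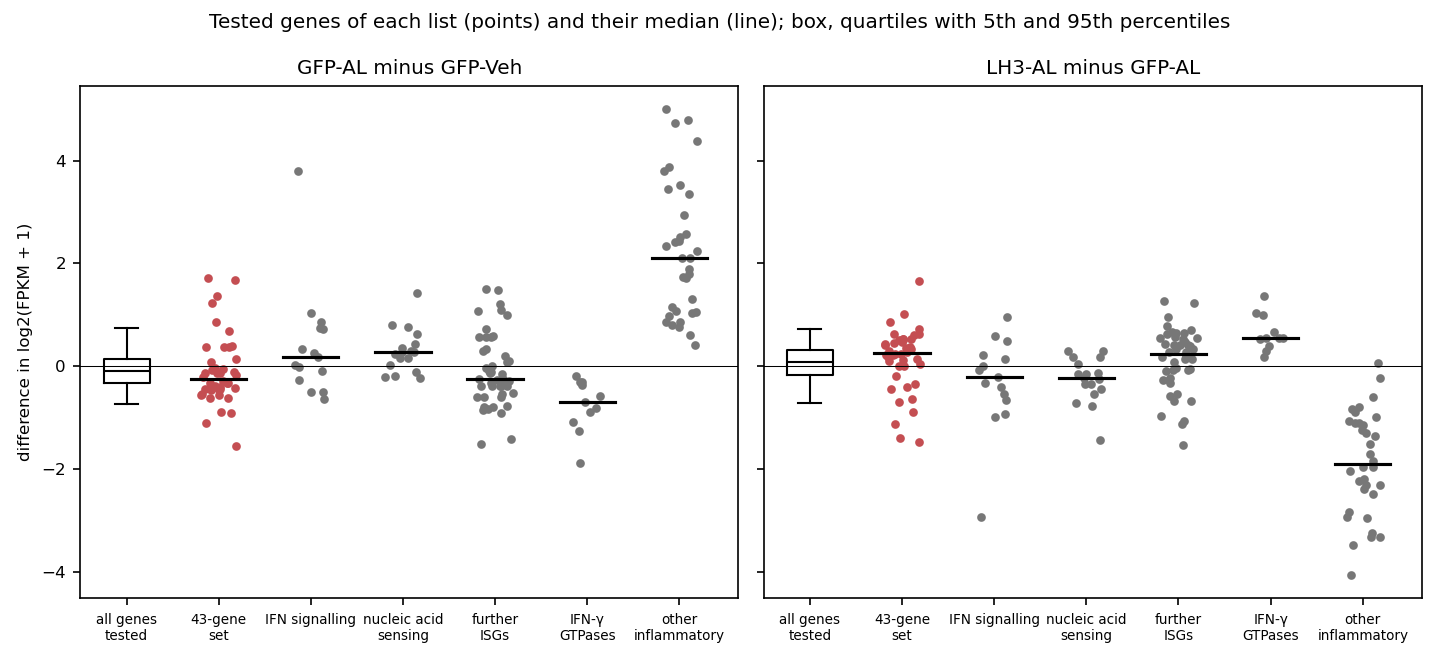
Differences in log2(FPKM + 1) of each tested gene of the 43-gene set (red) and of the other lists (grey), with the list's median as a line, beside a box of all 13082 genes (quartiles, with the 5th and 95th percentiles as whiskers). The 43-gene set spreads to both sides of 0 with medians of -0.25 and 0.25, while all 34 inflammatory genes lie above 0 on the left.

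Markers of several cell types also differed between the groups. Beside their counts, 10.8% of all genes were called higher and 17.7% lower in GFP-AL against GFP-Veh. For LH3-AL against GFP-AL the shares were 17% and 11.4%. In GFP-AL against GFP-Veh, 9 of the 15 markers of microglia and macrophages were called higher and 0 lower, and LH3-AL against GFP-AL gave 0 higher and 10 lower. Their summed level was 297 to 652 FPKM in GFP-Veh, 836 to 1351 in GFP-AL and 386 to 450 in LH3-AL, a pattern across groups like that of Irf8, Irf5 and Ifngr1. Monocyte and neutrophil markers summed to 80.8 to 229 FPKM, 159 to 1003 and 38.5 to 63.7, with 4 of 7 tested higher in GFP-AL and 6 lower in LH3-AL than in GFP-AL. Of the 10 in that list, Ly6c2, Ccr2 and Itgal had means below 1 FPKM. Endothelial markers summed to 2089 to 3012 FPKM in GFP-Veh, 2606 to 3965 in GFP-AL and 2032 to 2828 in LH3-AL, with 6 of 11 higher and 2 lower in GFP-AL. Choroid plexus and ependymal markers (7 of 8) and oligodendrocyte markers (5 of 6) were lower in GFP-AL, the direction of the guanylate-binding proteins and Ifi27. The choroid plexus and ependymal list summed to 3679 to 9196 FPKM in GFP-Veh, 1968 to 3097 in GFP-AL and 3158 to 5256 in LH3-AL. The oligodendrocyte list summed to 351 to 553, 142 to 321 and 231 to 599. Its sum was lowest of GFP-AL in replicate 4 and highest of LH3-AL in replicate 2. In those libraries Gbp7 was the highest of GFP-AL and the lowest of LH3-AL. Gbp2 was also highest of GFP-AL in replicate 4, but in LH3-AL it had 31.9 FPKM in replicate 2 against 28.0 in replicate 3. Gbp3 was at neither extreme. It had 12.7 FPKM in GFP-AL replicate 4 against 13.5 in replicate 1, and 16.7 in LH3-AL replicate 2 against 15.5 in replicate 3. The choroid plexus and ependymal sum was lowest of GFP-AL in replicate 3 and highest of LH3-AL in replicate 2, as Ifi27 was. Both were also lowest of LH3-AL in replicate 3. The sum was highest of GFP-AL in replicate 5, where Ifi27 had 25.2 FPKM against 32.5 in replicate 2. Red cell markers, which are globin genes, Alas2 and Slc4a1, gave 5 of 5 higher in GFP-AL than in GFP-Veh (median 2.25) and 0 of 5 called between the viruses (median -0.44). In LH3-AL against GFP-Veh 2 of these 5 were called higher (median 1.86), beside 0.145% of all genes. In all 5 the libraries of these groups did not overlap, beside 2.06% of all genes that were higher without overlap. Their sums stand beside Isg20 above. Of the markers of pericytes and smooth muscle 0 of 8 were higher and 2 lower in GFP-AL than in GFP-Veh, of astrocytes 1 of 6 higher and 2 lower, and of fibroblasts and neurons 0 were called. Lymphocyte markers summed to 4.21 to 13.5 FPKM, and the 1 of 8 that was tested was lower in GFP-AL. Among plasmacytoid dendritic cell markers, of which Bst2 is itself a member here, Siglech and Ccr9 had means below 1 FPKM. No marker was at 0 in all libraries. In bulk RNA fewer cells of a type and less RNA per cell cannot be told apart, and the part of these cell types in the results above was not tested.

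The authors' deposited table for GFP-AL against GFP-Veh holds 7 of the 43 members among its 1763 genes, beside 22557 genes in the expression table. In this authors' deposited table the smallest absolute log2 fold change is 1 and the highest q-value 0.0498. In the authors' deposited table Isg20 rose by 1.98, Irf8 by 1.94, Ifitm1 by 1.74 and Ifitm2 by 1.25 on the log2 scale. The same authors' deposited table gives Gbp7 at -1.39, Ifi44 at -1.21 and Gbp3 at -1.18. A second authors' deposited table is named for LH3-AL against GFP-Veh, but its fold changes match the group means of LH3-AL against GFP-AL (median absolute difference 0.12, same sign for 100% of 1746 genes). They do not match the means of the named groups (1.47, same sign for 58.8%). That authors' deposited table holds 6 members among its 1746 genes, with a highest q-value of 0.05. In that authors' deposited table Irf8 stands at -2, Ifitm1 at -1.62, Ifitm2 at -1.17, Irf5 at -1.04, Ifi44 at 1.39 and Gbp7 at 1.49.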

How the data were processed

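Bulk RNA was sequenced from cerebral vessels in 15 libraries, 5 each of GFP-Veh, GFP-AL and LH3-AL, grouped by title. Per the submitters' processing notes, reads were aligned with STAR 2.5.1b to mm8. The sources used here do not give how fragments were counted. The authors deposited FPKM, recorded as a score because 5.99% of values lie below 0 (the lowest is -0.465), although the test had been designed for FPKM. Values below 0 were set to 0 and 31 symbols on several rows were summed. The authors also deposited tables with a log2 fold change, a p-value and a q-value per gene, for which the sources used here name no test.

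The test was limma 3.58.1 (R 4.3.3) on log2(FPKM + 1), with a pseudocount of 1, over all 15 libraries with 1 mean per group and an intensity trend. It ran on the 13082 genes whose mean reached 1 FPKM. P-values were adjusted by Benjamini-Hochberg over all genes within a comparison and called below 0.05. Fold changes on this scale understate the change of low genes. Levels are given as mean ± SD over 5 libraries. Depth was estimated from FPKM steps and gene lengths (GENCODE M21, GRCm38; 22400 of 22557 genes matched). It bounds precision most for members near 1 FPKM. Scripts were tested on simulated data. Of the members, 16 share exon sequence with another gene (10 on the opposite strand), among the called ones Irf5, Irf9, Ifitm2, Ifi35, Gbp2, Gbp7 and Parp14.

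The 43 members and all lists were chosen with earlier results of these data known. Members called in any comparison, without overlap between groups, or that are receptors or transcription factors were described by library values, and the others by ranges. Isg15 and Rsad2 were also given by library after their values were seen. Of the other lists at most 4 called genes a comparison were named, smallest p first, with Ifnb1, Ifng and a signalling gene that is not reported here in any case; Lrg1 was named as the only call of its list. The alternatives tried were another pseudocount (0.1), dropping the filter or raising it to 5 FPKM, median-of-ratios and quantile scaling, a fit of 2 groups, a replicate block, depth as a covariate, limma voom on estimated reads, leaving out each library, and, chosen after seeing the data, leaving out 3 libraries that stood apart.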

Additional observations from a re-analysis of the deposited data

Results flagged for a closer look

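A library was flagged where it lay further from the rest of its group than Dixon's 95% critical value of 0.71 for 5 samples allows, on log2(FPKM + 1). Of 126 groups of 5 (42 members in 3 groups) 6 were flagged, and chance flags about 6.3. In GFP-Veh, replicate 2 had 55.6 FPKM of Ifitm1, the next highest being 33.2. In GFP-AL, replicate 4 had 5.41 FPKM of Irf5 against at least 9.30 in the others. GFP-AL replicate 3 had 7.04 FPKM of Irf9 against at least 10.1, and 9.80 FPKM of Ifngr2 against at least 12.7. LH3-AL replicate 5 had 20.7 FPKM of Irf7 against at most 10.8, and 59.2 FPKM of Rsad2 against at most 22.6.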

How the results depend on the processing

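Across the alternatives no call of a member changed direction. The rises of Ifitm1, Ifitm2, Ifitm3, Irf5, Irf8, Isg20 and Ifngr1 and the falls of Gbp3, Gbp7 and Ifi27 in GFP-AL against GFP-Veh held in every alternative. Over 20 alternatives the 18 calls there were lost 27 times and uncalled members gained a call 5 times (Bst2, Irf1, Mx2, Oas1a and Oas2, all lower). In LH3-AL against GFP-AL the 17 calls were lost 72 times and 7 were gained, by Ifit1, Irf1, Mx2, Rsad2 and Rtp4, all higher. In GFP-AL against GFP-Veh the count of members higher was 7 or 8 throughout. The count lower was 3 with depth as a covariate, beside 10.3% of all genes. It was 4 without the 3 libraries that stood apart, beside 14.6%, with a median of -0.064 beside -0.061 over all genes. Leaving out single libraries gave 9 to 12, beside 13.0% to 20.3%. In LH3-AL against GFP-AL the 10 members higher became 6 without a filter, 6 with median-of-ratios scaling, 6 with quantile normalization, 6 in a fit of the 2 groups and 4 without the 3 libraries, and leaving out single libraries gave 4 (without GFP-AL replicate 3 or LH3-AL replicate 1) to 12. Over all genes the share called higher was 11.5%, 13.6%, 14.2%, 13.6% and 11.4% in those 5 settings, and 12.1% and 11.4% without those 2 libraries, against 17%. The members lower were 5 to 7. In LH3-AL against GFP-Veh the count higher was 1 (Isg20) without the 3 libraries and 0 otherwise. Median-of-ratios scaling changed the split of all genes from 1416 higher and 2321 lower to 1842 and 1711 in GFP-AL against GFP-Veh, and from 2227 and 1496 to 1782 and 1895 in LH3-AL against GFP-AL. The cause of these changes was not tested.

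With the replicate block the counts were 8 higher and 9 lower, 6 and 7, and 0 and 0 in the 3 comparisons. Of 15 pairs of libraries with the same number 5 had a correlation of deviations over 0.1 (range -0.26 to 0.29) and 4 matched best with their own number. Such correlations cannot settle whether libraries of the same number share anything beyond it, and this was not tested.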
